A study of Mus musculus with 2 samples.

Results

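Glutathione S-transferases, UDP-glucuronosyltransferases and sulfotransferases are enzymes that attach a polar group to drugs, hormones and reactive by-products of metabolism. They were followed as transcripts in 2 droplet libraries of mouse hepatocytes. The genes were taken by their symbols: the cytosolic glutathione S-transferases of the alpha, mu, omega, pi, theta and zeta classes (Gsta, Gstm, Gsto, Gstp, Gstt and Gstz), the kappa class (Gstk), the microsomal ones (Mgst), the Ugt1, Ugt2 and Ugt3 genes, and the Sult genes. The symbols matched 64 of the 28692 genes listed. Of these, 38 had at least 20 unique molecular identifiers (UMIs, the tags that count each captured transcript once) over both libraries and are described here. A further 11 had 1 to 19 UMIs, and 15 had none.

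The hepatocytes came from C57BL/6 liver and were cultured in 3 dimensions in Matrigel, a gel of basement membrane proteins. The induction library was made from cells given 3 uM dexamethasone, a synthetic glucocorticoid. The expansion library came from cells given CHIR99021 (3 uM), which inhibits GSK3, a kinase of Wnt signalling, and 100 ng/mL of the cytokine TNFa, with no dexamethasone. Both media held 25 ng/mL EGF and 50 ng/mL HGF as growth factors, 10 uM of the ROCK inhibitor Y27632, 1 uM of the TGF-beta receptor inhibitor A83-01, 100 mM nicotinamide and 1.25 mM N-acetylcysteine, a precursor of glutathione. Each medium has 1 library and the number of animals is not given in the labels, so a difference between the libraries has no replicate check and no test was possible. The 3 agents that differ between the media cannot be told apart.

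Conjugation is the second phase of detoxification. Glutathione S-transferases join the tripeptide glutathione to electrophiles such as aldehydes and epoxides. UDP-glucuronosyltransferases sit in the endoplasmic reticulum and transfer glucuronic acid from UDP-glucuronic acid to bilirubin, steroids and drugs. Sulfotransferases of the Sult family are cytosolic and transfer sulfate from PAPS to phenols, oestrogens, hydroxysteroids and bile acids, and the liver is a main site of each of the 3 reactions.

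After cells with few genes or much mitochondrial RNA were left out, the induction library held 1245 cells and 9201887 UMIs, with a median of 6765 UMIs per cell. The expansion library held 1191 cells and 29390000 UMIs, with a median of 23184 UMIs per cell, a 3.43-fold gap. Levels are CPM, UMI counts scaled to the same total in each library. A floor of 3 UMIs, the one-sided 95% limit of a count of 0, is 0.326 CPM in the induction library and 0.102 CPM in the expansion library. Hepatocyte markers were counted in 100% of cells of both libraries, with a summed level of 88142 CPM in induction and 62579 CPM in expansion. The summed markers of endothelial cells, macrophages, stellate cells and leukocytes reached at most 1.36 CPM in either library. Among them, Kdr, Clec4f, Adgre1, Col1a1 and Ptprc were at 0. Others were counted, such as Cd68 (6 UMIs in induction, 40 in expansion) and Pecam1 (3 in induction, 16 in expansion). Macrophage markers were counted in 2.77% of expansion cells. Cholangiocyte markers summed to 84.4 CPM in induction and 119 CPM in expansion. At full depth they were counted in 41.0% of induction and 88.2% of expansion cells. Most of the sum was Sox9, at 74.8 CPM in induction and 103 CPM in expansion. Cftr had 6.96 CPM in induction and 11.4 CPM in expansion, and Epcam 2.61 CPM and 4.42 CPM. Krt19 reached at most 0.204 CPM and Krt7 was at 0. The part of these markers in the results was not tested. Depth was checked only by thinning each cell to 2000 UMIs.

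Ratios are given on the log2 scale, induction over expansion, with a 95% interval that covers counting error only. Calls needed a difference of at least 2-fold in either direction and an interval that excludes equal levels. Of the 38 described genes, 19 were higher in induction medium, 3 were lower and 16 were neither. Over the 11956 genes with at least 20 UMIs, 9.12% were higher and 5.38% were lower. The median log2 ratio was 1.00 over the 38 genes and 0.17 over the 11956. The typical well counted gene lay at a log2 ratio of 0.22, and relative to it 14 of the 38 genes were higher and 4 were lower, against 6.63% and 7.75% of all genes. Gsta2, Gstp2 and Sult2a3, with 36, 38 and 41 UMIs, lay just inside the 20 UMI limit, and Ugt1a6a, Ugt3a1 and Sult2a5, with 16, 12 and 10 UMIs, just outside. Sult1d1, Sult1e1 and Sult2a1 had fewer than 20 UMIs in expansion and Gsta2, Gstp2, Sult1c2 and Sult2a3 fewer than 20 in induction, so the counts of higher and lower genes describe what passed and not the 64.

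**Figure D1:**
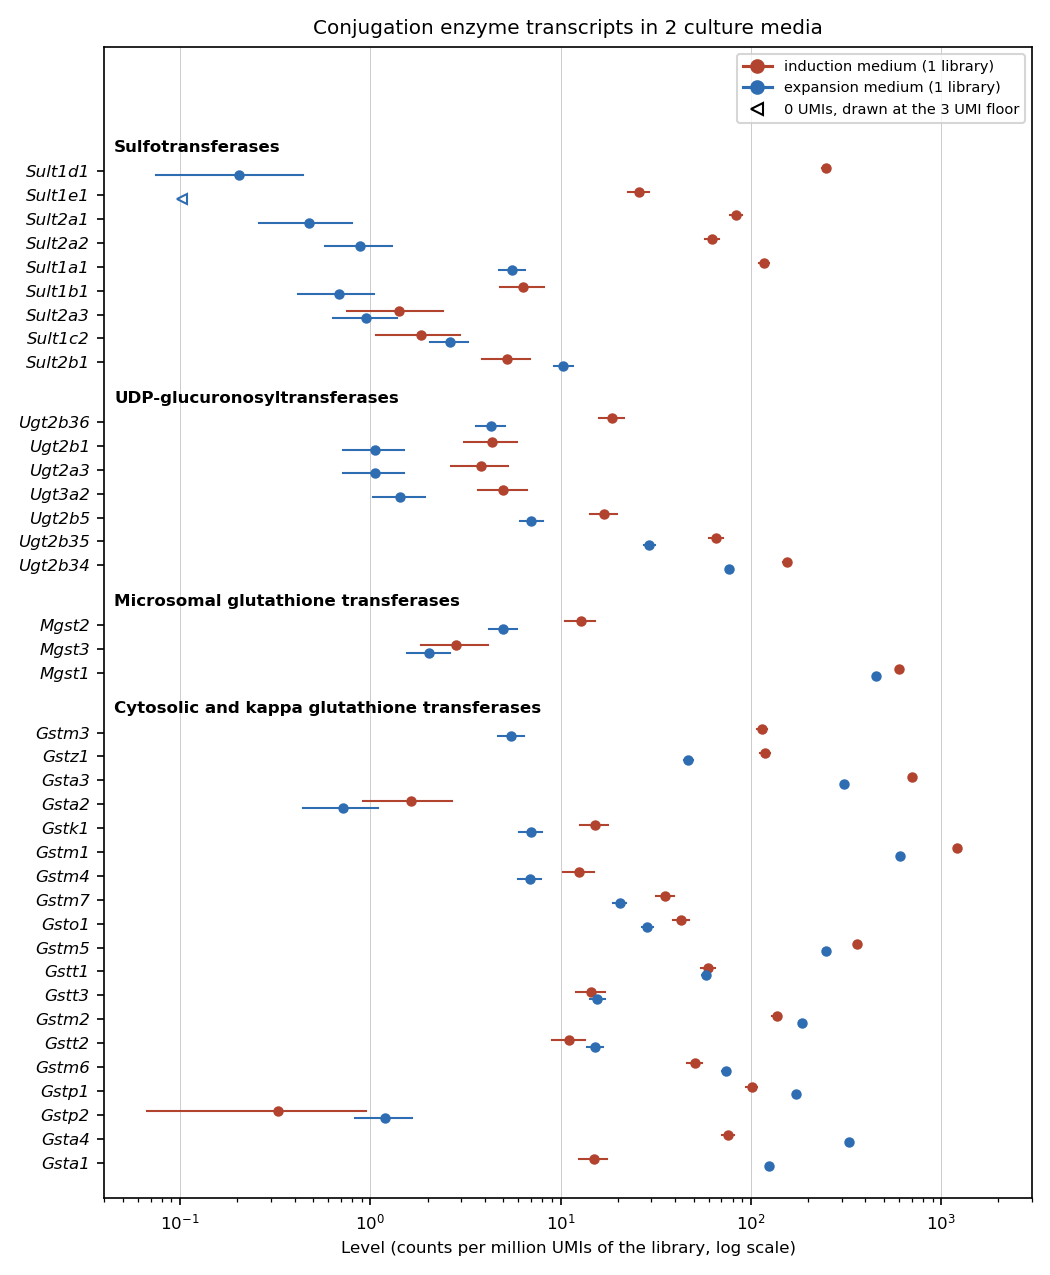
Level of the 38 described genes in CPM (log axis) in the induction library (red) and the expansion library (blue), with 95% Poisson intervals of the counts, grouped by family. The sulfotransferases at the top span from 247 CPM against 0.204 CPM for Sult1d1 to 5.22 CPM against 10.3 CPM for Sult2b1, while most glutathione S-transferase pairs lie close together.

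The sequences shown are the 250 bases before the RefSeq start of 5 genes on which the results turn: 3 sulfotransferases of the largest ratios that have a promoter in the RefSeq table (GRCm38.p6), and the alpha class pair Gsta1 and Gsta2, near copies with different counts. Of the 64 genes, 56 had an entry in that table. Each runs 5′ to 3′ on the strand of its gene, up to the start that RefSeq gives, which for Gsta2 lies inside the longer span of the GENCODE annotation used for coordinates. GENCODE exons cover 21 bases of the Sult1d1 window, 14 of Sult1a1, 13 of Gsta1, 23 of Gsta2 and 0 of Sult1e1. Capitals mark any match, on either strand, to the letters TGACNNNGC (antioxidant response element core), GCGTG (dioxin response element core), TGTTCT (a single arm of the glucocorticoid response element), GTTAAT (a single arm of the HNF1 site) and TATAAA (a core promoter box). The windows are chr5:87569007-87569256 (minus strand) for Sult1d1, chr5:87591612-87591861 (minus) for Sult1e1, chr7:126676419-126676668 (minus) for Sult1a1, chr9:78230419-78230668 (plus) for Gsta1 and chr9:78347146-78347395 (minus) for Gsta2.
Sult1d1: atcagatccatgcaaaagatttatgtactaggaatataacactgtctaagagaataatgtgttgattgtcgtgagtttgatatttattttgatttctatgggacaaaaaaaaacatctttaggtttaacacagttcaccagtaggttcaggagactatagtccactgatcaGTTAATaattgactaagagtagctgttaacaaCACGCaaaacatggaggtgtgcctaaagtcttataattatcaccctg
Sult1e1: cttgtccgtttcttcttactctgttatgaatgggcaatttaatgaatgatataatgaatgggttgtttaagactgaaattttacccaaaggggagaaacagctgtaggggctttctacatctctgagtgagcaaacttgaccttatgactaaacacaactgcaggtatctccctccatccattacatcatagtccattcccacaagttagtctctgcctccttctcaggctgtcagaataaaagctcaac
Sult1a1: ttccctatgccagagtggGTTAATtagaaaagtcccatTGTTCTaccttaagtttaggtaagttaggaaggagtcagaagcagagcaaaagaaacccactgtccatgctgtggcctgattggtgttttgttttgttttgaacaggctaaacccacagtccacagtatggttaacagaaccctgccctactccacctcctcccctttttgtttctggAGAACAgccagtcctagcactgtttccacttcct
Gsta1: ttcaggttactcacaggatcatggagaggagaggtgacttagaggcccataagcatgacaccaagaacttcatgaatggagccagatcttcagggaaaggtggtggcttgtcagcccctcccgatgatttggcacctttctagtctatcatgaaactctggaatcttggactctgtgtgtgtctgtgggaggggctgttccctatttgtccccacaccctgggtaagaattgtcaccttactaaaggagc
Gsta2: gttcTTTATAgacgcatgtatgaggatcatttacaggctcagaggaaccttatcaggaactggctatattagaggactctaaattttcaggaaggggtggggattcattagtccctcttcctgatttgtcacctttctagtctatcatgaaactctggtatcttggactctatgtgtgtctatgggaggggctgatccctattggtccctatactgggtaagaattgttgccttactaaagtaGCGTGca

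The Sult1d1 window held GTTAAT at 79 to 74 bases before the start and the reverse complement of GCGTG at 47 to 43. The Sult1a1 window held GTTAAT once and TGTTCT on both strands, at 212 to 207 and at 34 to 29 bases before the start. The Sult1e1 and Gsta1 windows held none of the 5 letter strings. Gsta1 and Gsta2 were 70.5% identical over the aligned windows, and Gsta2 alone of the pair carried GCGTG and the reverse complement of TATAAA. Among all 27025 promoters, TGTTCT was in 16.2%, GTTAAT in 6.52%, GCGTG in 28.2%, TATAAA in 13.0% and TGACNNNGC in 10.1%. Among the 33 described genes with an entry, TGTTCT was in 5, GTTAAT in 5, GCGTG in 6, TATAAA in 3 and TGACNNNGC in 3. These matches are letters in a window and show no binding.

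The sulfotransferases were the family furthest apart between the media. Their summed level was 551 CPM in induction and 21.8 CPM in expansion, a 25.2-fold difference (log2 4.66, 4.54 to 4.78). Of 19 genes, 9 were described, of which 6 were higher and none was lower, with a median log2 ratio of 4.39. Sult2b1 was lower relative to the typical gene only. The 6 higher genes stand in 3 places of the genome, in 2 of them grouped together. Coordinates are of GRCm38, the assembly that mm10 denotes.

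Sult1d1, which in mice sulfates catecholamines and small phenols, had 2270 UMIs (247 CPM) in induction and 6 UMIs (0.204 CPM) in expansion, a log2 ratio of 10.24 (9.11 to 11.69). It lies at chr5:87554645-87569027 on the minus strand. Its neighbour Sult1e1 (chr5:87575969-87591594, minus), the oestrogen sulfotransferase, had 237 UMIs (25.8 CPM) in induction and none in expansion. Set against a floor of 3 UMIs in the expansion library, its induction level was 252-fold higher. The counting interval of its log2 ratio starts lower, at 7.67. With each cell thinned to 2000 UMIs before summing, the log2 ratio was 7.75 (6.85 to 14.64) for Sult1d1 and 4.10 for Sult1e1. For both, the thinned expansion count lay under the floor and was set at 3 UMIs. Sult1b1 (chr5:87513339-87538195, minus), which sulfates thyroid hormones and phenols, had 58 UMIs (6.30 CPM) in induction and 20 UMIs (0.681 CPM) in expansion, a log2 ratio of 3.21 (2.46 to 4.02). The 3 genes thus lie side by side and were each higher in induction medium, at levels that differ from 6.30 to 247 CPM there.

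Sult2a1 and Sult2a2, hydroxysteroid sulfotransferases that act on dehydroepiandrosterone and bile acids, lie close together on chromosome 7. Sult2a1 (chr7:13796246-13837409, minus) had 765 UMIs (83.1 CPM) in induction and 14 UMIs (0.476 CPM) in expansion, a log2 ratio of 7.45 (6.69 to 8.33). Sult2a2 (chr7:13733505-13779636, plus) had 577 UMIs (62.7 CPM) in induction and 26 UMIs (0.885 CPM) in expansion, a log2 ratio of 6.15 (5.58 to 6.77). In expansion, 1 cell held 9 of the 14 Sult2a1 UMIs and 1 cell held 14 of the 26 Sult2a2 UMIs. The intervals do not cover such clumping. With cells of at least 1000 genes and at most 10% mitochondrial UMIs, the log2 ratio was 8.77 for Sult2a1 and 7.17 for Sult2a2, outside these intervals. With each cell thinned to 2000 UMIs before summing, it was 6.29 for Sult2a1, under its interval, and 5.67 for Sult2a2, inside. The pair shares sequence: 34.1% of the 90-base windows in the last 500 bases of Sult2a2 transcripts occur in other Sult2a genes, and 0% of those of Sult2a1. In the first 500 bases the share is 30.2% for each, so the split of UMIs between them is uncertain. Sult2a3 of the same cluster had 13 UMIs in induction and 28 UMIs in expansion. Its interval holds equal levels (log2 0.57, -0.50 to 1.56). Sult2a6, Sult2a7 and Sult2a8 had no UMIs.

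Sult1a1 (chr7:126672865-126676432, minus), the main phenol sulfotransferase of liver, had 1073 UMIs (117 CPM) in induction and 164 UMIs (5.58 CPM) in expansion, a log2 ratio of 4.39 (4.15 to 4.63). With each cell thinned to 2000 UMIs before summing, the log2 ratio was larger, at 5.08 (4.08 to 6.31). Sult1a1 was the sulfotransferase with the highest level but one in induction. It held 21.2% of the family's UMIs there and 25.5% in expansion. Sult1d1 held 44.8% of the family's UMIs in induction and 0.935% in expansion. In expansion the largest share, 47.4%, belonged to Sult2b1, a cholesterol sulfotransferase best known from skin, which held 0.947% in induction. Its levels were 5.22 CPM in induction and 10.3 CPM in expansion, a log2 ratio of -0.99 (-1.46 to -0.54), just short of 2-fold. Sult1c2 was not higher either, at 1.85 CPM in induction and 2.62 CPM in expansion with an interval that holds equal levels. Sult1c1, Sult3a1, Sult4a1 and Sult6b1 had no UMI in either library.

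All 7 described glucuronosyltransferases were higher in induction medium, by smaller ratios of 1.01 to 2.12, and 5 of them were higher relative to the typical gene. Their family sum was 272 CPM in induction and 122 CPM in expansion, a 2.23-fold difference. Ugt2b34 (chr5:86889767-86906937, minus), of the subfamily that conjugates steroids, bile acids and drugs, had 155 CPM in induction and 76.9 CPM in expansion, a log2 ratio of 1.01 (0.91 to 1.10). It made up 56.9% of the family's UMIs in induction and 63.3% in expansion, and with Ugt2b35 (65.5 CPM in induction, 29.3 CPM in expansion) it was no longer 2-fold higher relative to the typical gene. Ugt2b36 (chr5:87065927-87092555, minus) had the largest ratio, with 171 UMIs (18.6 CPM) in induction and 126 UMIs (4.29 CPM) in expansion, a log2 ratio of 2.12 (1.78 to 2.46). Ugt2b1, Ugt2a3, Ugt3a2 and Ugt2b5 ranged from 3.80 to 16.8 CPM in induction and from 1.05 to 7.01 CPM in expansion, with log2 ratios of 2.04, 1.85, 1.81 and 1.26. In the first 500 bases of Ugt2b5, 86.4% of 90-base windows also occur in Ugt2b37 or Ugt2b38, and in the last 500 bases none does. The Ugt2 genes and the Sult1b1, Sult1d1 and Sult1e1 genes follow each other on chromosome 5.

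The Ugt1a genes, which include the bilirubin enzyme Ugt1a1, were almost silent in both files. Their 9 entries held 21 UMIs in induction and 8 UMIs in expansion, and 5 of them held none. These genes share their last exons: in the last 500 bases, every 90-base window of 6 of the 9 also occurs in another Ugt1a gene, and in the other 3 between 58.3% and 82.1% of windows do. In the first 500 bases, 5 of the 9 share no window and 4 share 20.1% to 89.3%. The labels do not say which transcript end was read, and Cell Ranger counts a read only when it maps to a single gene; the part of this in the low counts was not tested. The olfactory Ugt2a1 and Ugt2a2 and the liver gene Ugt2b38 had no UMI. In the last 500 bases, every window of Ugt2a1 and Ugt2a2 also occurs in another gene, and no window of Ugt2b38 does. In the first 500 bases the shares are 92.9% for Ugt2a1, 80.4% for Ugt2a2 and 86.4% for Ugt2b38. The part of shared sequence in these absent counts was not tested either.

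The cytosolic glutathione S-transferases, counted with Gstk1, were the most abundant family, the one of the 4 with calls in both directions; relative to the typical gene the sulfotransferases, with Sult2b1 lower, had both too. Their sum was 3076 CPM in induction and 2251 CPM in expansion, a 1.37-fold difference, and none of the 21 genes was silent. Of the 19 described, 5 were higher, 3 were lower and 11 were neither, and 2 stayed higher relative to the typical gene.

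The mu class lies in a cluster on chromosome 3 and summed to 1919 CPM in induction and 1147 CPM in expansion. Gstm1 (chr3:108012255-108017973, minus), a major liver enzyme of the class, was the most abundant of all 64 genes in both libraries, with 11122 UMIs (1209 CPM) in induction and 17879 UMIs (608 CPM) in expansion, a log2 ratio of 0.99 (0.96 to 1.02) just short of the 2-fold limit. Some of its windows also occur in Gstm2, Gstm3 and the gene model Gm8834. Gstm3 (chr3:107963696-107969283, minus) stood apart from its neighbours, with 1054 UMIs (115 CPM) in induction and 162 UMIs (5.51 CPM) in expansion, a log2 ratio of 4.38 (4.14 to 4.62). It shares no 90-base window of its last 500 bases, and 33.1% of those of its first 500 bases with Gstm6 or Gm8834. Gstm5 (chr3:107895821-107898686, plus) had 361 CPM in induction and 248 CPM in expansion, a log2 ratio of 0.54 (0.48 to 0.60). Gstm2 (chr3:107981702-107986453, minus) had 136 CPM in induction and 185 CPM in expansion, a log2 ratio of -0.44 (-0.53 to -0.35). Gstm4 and Gstm7 had log2 ratios of 0.86 and 0.80, and Gstm6 of -0.54. Within 1 gene cluster, ratios thus ran from -0.54 to 4.38.

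The alpha class held the clearest differences in opposite directions, and its sum was nearly level at 793 CPM in induction and 759 CPM in expansion. Gsta3 (chr1:21240589-21265661, plus), which in mice detoxifies the epoxide of aflatoxin, had 6449 UMIs (701 CPM) in induction and 9023 UMIs (307 CPM) in expansion, a log2 ratio of 1.19 (1.14 to 1.24), or 0.97 relative to the typical gene. Gsta4 (chr9:78182774-78209349, plus), which conjugates the lipid peroxidation product 4-hydroxynonenal, had 698 UMIs (75.9 CPM) in induction and 9596 UMIs (327 CPM) in expansion, a log2 ratio of -2.11 (-2.22 to -1.99). Gsta1 (chr9:78230656-78242684, plus) had 137 UMIs (14.9 CPM) in induction and 3676 UMIs (125 CPM) in expansion, a log2 ratio of -3.07 (-3.33 to -2.82), the lowest of the 38. Gsta2 (chr9:78331018-78355788, minus), its near copy, had 15 UMIs in induction and 21 UMIs in expansion, a log2 ratio of 1.19 (0.13 to 2.21). Of the 90-base windows in the last 500 bases, 81.8% of Gsta1 and 36.2% of Gsta2 also occur in each other or in the gene models Gm3776 and Gm10639, so the split of UMIs among these copies is uncertain. Gm10639 had 0 UMIs in induction and 26 UMIs in expansion. Gsta4 and Gsta3 share no such window.

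The pi class enzyme Gstp1 (chr19:4035407-4037985, minus) had 101 CPM in induction and 172 CPM in expansion, a log2 ratio of -0.77 (-0.87 to -0.67), and 31.1% of its last windows occur in other Gstp genes. Its neighbour Gstp2 had 3 UMIs in induction and 35 UMIs in expansion, a log2 ratio of -1.87 (-4.21 to -0.20), and shares 53.1% of its own. Gstz1 (chr12:87147165-87164723, plus), the maleylacetoacetate isomerase of tyrosine breakdown, had 119 CPM in induction and 46.9 CPM in expansion, a log2 ratio of 1.35 (1.23 to 1.46). Gstk1, found in mitochondria and peroxisomes, had 15.1 CPM in induction and 6.98 CPM in expansion, and was higher only against the library total. The theta class genes Gstt1, Gstt2 and Gstt3 and the omega gene Gsto1 had log2 ratios between -0.45 and 0.59, with 15.4% of the last windows of Gstt3 shared with the gene model Gm20441.

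The microsomal enzymes are membrane proteins. Mgst1 (chr6:138140316-138156755, plus), of the endoplasmic reticulum and outer mitochondrial membrane, held 97.5% of the class's UMIs in induction and 98.5% in expansion. Its levels were 597 CPM in induction and 457 CPM in expansion, a log2 ratio of 0.39 (0.34 to 0.43). Mgst2, which can make leukotriene C4, had 117 UMIs (12.7 CPM) in induction and 147 UMIs in expansion and was higher, with a log2 ratio of 1.35 (0.98 to 1.71). Mgst3 had 26 UMIs in induction and 60 UMIs in expansion, with an interval that holds equal levels.

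The genes that supply the co-substrates differed less than the sulfotransferases. Genes of the lists in this and the next paragraph count as measured with at least 20 UMIs. Over all genes, 9.12% were higher and 5.38% lower, or 6.63% and 7.75% relative to the typical gene. A list of 8 genes is too small to set 1 call apart from these shares. Of 8 measured genes of glutathione synthesis and recycling, 1 was higher and none was lower: Oplah, the 5-oxoprolinase, at 14.2 CPM in induction and 4.70 CPM in expansion. Gclc and Gclm, the subunits of the rate-limiting ligase, had log2 ratios of 0.89 and 0.90. Of 4 genes around UDP-glucuronic acid, 2 were higher: Ugp2, which makes UDP-glucose (179 CPM in induction, 56.1 CPM in expansion, log2 1.67), and Slc35d1, a transporter of UDP-glucuronic acid (55.6 CPM in induction, 20.1 CPM in expansion, log2 1.47). Ugdh, which oxidises UDP-glucose to UDP-glucuronic acid, had a log2 ratio of 0.55. Of 6 measured genes of the PAPS pathway, none was called: the PAPS synthase Papss2 had 129 CPM in induction and 66.9 CPM in expansion (log2 0.95), and Papss1 had 9.56 CPM in induction and 12.3 CPM in expansion (log2 -0.37). So Sult transcripts were higher while the transcripts for sulfate activation differed by less than 2-fold.

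Among 8 other measured conjugation enzymes, 6 were higher and none was lower, of which 2 remained relative to the typical gene: the thiopurine methyltransferase Tpmt (log2 1.40) and the nicotinamide methyltransferase Nnmt (log2 2.68). Of 8 transporters that export conjugates or drugs, only Abcc6 was higher (5.98 CPM in induction, 1.57 CPM in expansion) and none was lower. The canalicular exporter Abcc2 had 127 CPM in induction and 68.6 CPM in expansion (log2 0.89), and the basolateral Abcc3 had 56.0 CPM in induction and 100 CPM in expansion (log2 -0.84), which made Abcc3 lower relative to the typical gene, as was Abcb1a. Of 12 measured regulators, 4 were higher and none was lower. These were the pregnane X receptor Nr1i2 (12.8 CPM in induction, 2.45 CPM in expansion), its partner Rxra (100 CPM in induction, 20.4 CPM in expansion), Ppara (5.76 CPM in induction, 1.43 CPM in expansion) and Hnf4a (250 CPM in induction, 93.4 CPM in expansion). The glucocorticoid receptor Nr3c1 had a log2 ratio of 0.39, the stress regulator Nfe2l2, whose known targets include several Gst genes, of 0.07, and the dioxin receptor Ahr of -0.30. The constitutive androstane receptor Nr1i3 had 7 UMIs in induction and 1 UMI in expansion.

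To compare how many cells carried a transcript, each cell was thinned to 2000 UMIs, which left out 14 induction cells and no expansion cell. At that depth a UMI of any sulfotransferase was found in 52.7% of 1231 induction cells and 3.86% of 1191 expansion cells. For the glucuronosyltransferases the shares were 41.2% in induction and 23.0% in expansion, and for the glutathione S-transferases 97.8% in induction and 98.1% in expansion. Nearly every cell thus carried a glutathione S-transferase transcript in either medium, whereas at this depth the share with a sulfotransferase transcript differed widely between the media.

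By gene, Gstm1 was found in 74.2% of induction cells and 61.6% of expansion cells, and Gsta3 in 64.8% of induction cells and 43.9% of expansion cells. Sult1d1 was found in 33.5% of induction cells (interval 30.8% to 36.2%) and in 1 expansion cell, 0.084%. Sult1a1 was found in 19.2% of induction cells and 0.672% of expansion cells, and Gstm3 in 13.8% of induction cells and 1.34% of expansion cells. The order was the other way for Gsta4, with 10.9% of induction cells (9.20% to 12.8%) and 41.1% of expansion cells (38.2% to 43.9%), and for Gsta1, with 2.36% of induction cells and 18.2% of expansion cells. Gstp1 was found in 15.4% of induction cells and 26.4% of expansion cells, and Gstm2 in 18.7% of induction cells and 29.7% of expansion cells.

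At full depth Sult1d1 was found in 61.1% of induction cells and 0.504% of expansion cells, and Gsta4 in 28.5% of induction cells and 95.8% of expansion cells. No cell type without these enzymes was present to gauge RNA free in the suspension, so Xist, an RNA of cells with 2 X chromosomes, was counted in cells with at least 2 UMIs of Y-linked genes. It was found in 6 of 272 such induction cells (2.21%, median 7900 UMIs) and in 192 of 599 such expansion cells (32.1%, median 24990 UMIs). The full-depth shares of Sult1a1 (11.9%) and Gstm3 (10.6%) in expansion cells lie under that level. So do those of other described genes, such as Sult2b1 (21.7%) and Gstt3 (29.2%). Free RNA of a gene depends on that gene's own level, so the Xist share is no cutoff for other genes. It cannot decide whether such low shares are expression. Doublets may also add to the Xist share.

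**Figure D2:**
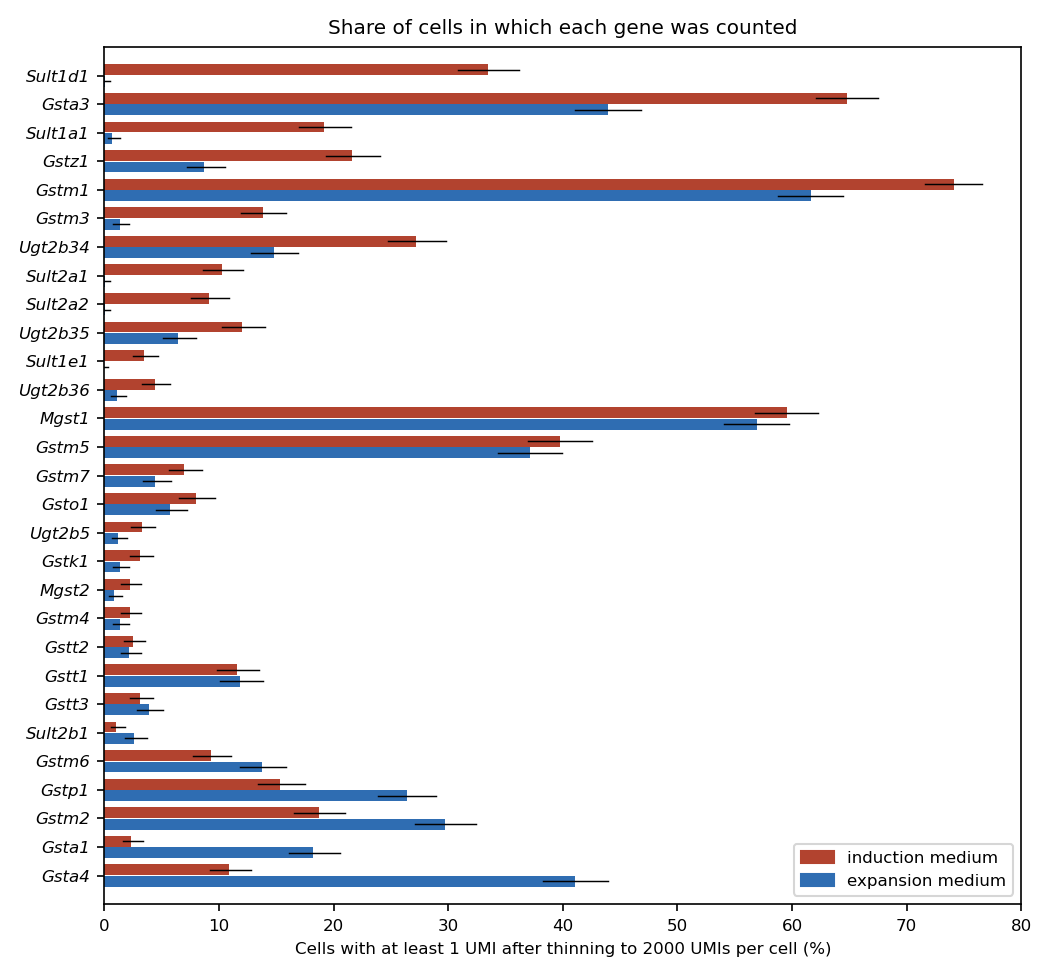
Percent of cells with at least 1 UMI after thinning to 2000 UMIs per cell, in induction (red) and expansion medium (blue), for the 29 genes found in at least 2% of cells in either medium, with 95% Clopper-Pearson intervals. Sult1d1, Sult1a1 and Gstm3 are in 33.5%, 19.2% and 13.8% of induction cells and at most 1.34% of expansion cells, and Gsta4 is in 10.9% of induction cells against 41.1% of expansion cells.

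Some transcripts were concentrated in few induction cells. The 10% of induction cells with the most UMIs of a gene held 81.2% of UMIs for Sult2a1, 77.0% for Sult2a2 and 75.7% for Gstm3. The shares were 42.9% for Sult1d1, 35.7% for Gstz1 and 33.2% for Gsta3. Genes of low count had high shares too, such as Ugt2b36 (171 UMIs, 84.2%) and Gstk1 (139 UMIs, 97.8%). The share thus cannot compare genes of unlike count. Gstm3 and Gstz1, with 1054 and 1097 induction UMIs, were of like count. In thinned cells the variance over the mean was 3.76 for Sult2a1, 3.75 for Gstm3 and 3.63 for Gstm1. Their means were 0.197, 0.258 and 2.49 UMIs per cell. The median of this measure was 1.06 over the 2266 genes with a mean of at least 0.1 UMI per cell, with the top 10% of genes above 1.53. Those genes were not matched by mean level, on which the measure can depend. Sult1d1 (1.80) and Gsta3 (1.72) were above 1.53 as well, and Gstz1 (1.01) was not. A value of 1 is what counting alone gives. Cells of the induction library thus differed beyond counting in Sult2a1, Gstm3 and Gstm1, and less so in Sult1d1 and Gsta3.

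Cells of each library were then ordered by the share of their UMIs that came from albumin, the main secreted protein of hepatocytes, and the 25% with the most were set over the 25% with the least. In induction these groups had 311 cells each, with median albumin shares of 3.89% in albumin-rich and 0.479% in albumin-poor cells. In expansion they had 297 cells each, with shares of 0.396% in albumin-rich and 0.0213% in albumin-poor cells. Median UMIs per cell were close, at 7070 and 7056 in induction and 22345 and 24023 in expansion. The proliferation transcripts Mki67 and Top2a summed to 10.7 CPM in the albumin-rich and 83.7 CPM in the albumin-poor induction cells, and to 46.1 CPM in the albumin-rich and 83.5 CPM in the albumin-poor expansion cells, and the part of proliferation in the ratios was not tested. These groups are ends of a range and not cell types.

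In induction medium, 10 of 31 genes with at least 20 UMIs in these cells were higher in albumin-rich cells and 2 were lower, where 4.2% of all genes were higher and 14.4% lower. In expansion medium, 10 of 28 were higher and 1 was lower, where 4.94% of all genes were higher and 11.7% lower. The 10 of expansion medium became 6 when cells were ordered by 12 secreted protein genes, and 5 within Xist cells alone. The groups within Xist cells held 81 cells each, against 297, and the part of this in the drop was not tested. Both media had Gsta3, Gstk1, Ugt2b36, Ugt2b5 and Ugt3a2 among the higher genes, though Ugt2b36 in expansion turned to -0.35 when cells were ordered by 12 secreted protein genes in place of albumin. Gsta3 had 1080 CPM in albumin-rich and 405 CPM in albumin-poor induction cells, and 441 CPM in albumin-rich and 210 CPM in albumin-poor expansion cells. In induction medium Sult1e1 (log2 3.12), Sult2a1 (2.61), Sult2a2 (2.11), Gstm3 (1.54) and Sult1d1 (1.18) were higher in albumin-rich cells as well. Sult2a1 had 164 CPM in albumin-rich and 26.8 CPM in albumin-poor induction cells. In expansion medium Gsta1, Gstm7, Gstp1, Gstz1 and Sult2b1 completed the 10.

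Gsta1 ran in opposite directions in the 2 media. In induction it had 5.56 CPM in albumin-rich and 25.6 CPM in albumin-poor cells, a log2 ratio of -2.20 (-3.19 to -1.33). In expansion it had 199.7 CPM in albumin-rich and 53.0 CPM in albumin-poor cells, a log2 ratio of 1.91 (1.75 to 2.08). Gsta4 followed it with smaller ratios of -0.89 in induction (59.9 CPM in albumin-rich, 111 CPM in albumin-poor cells) and 0.77 in expansion (407 CPM in albumin-rich, 240 CPM in albumin-poor cells), neither of them past 2-fold. Gstm5 had 257 CPM in albumin-rich and 519 CPM in albumin-poor induction cells (log2 -1.01), and 267 CPM in albumin-rich and 214 CPM in albumin-poor expansion cells (log2 0.32). The intervals of the 2 media do not overlap for these 3 genes, and the difference between the media has no replicate.

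**Figure D3:**
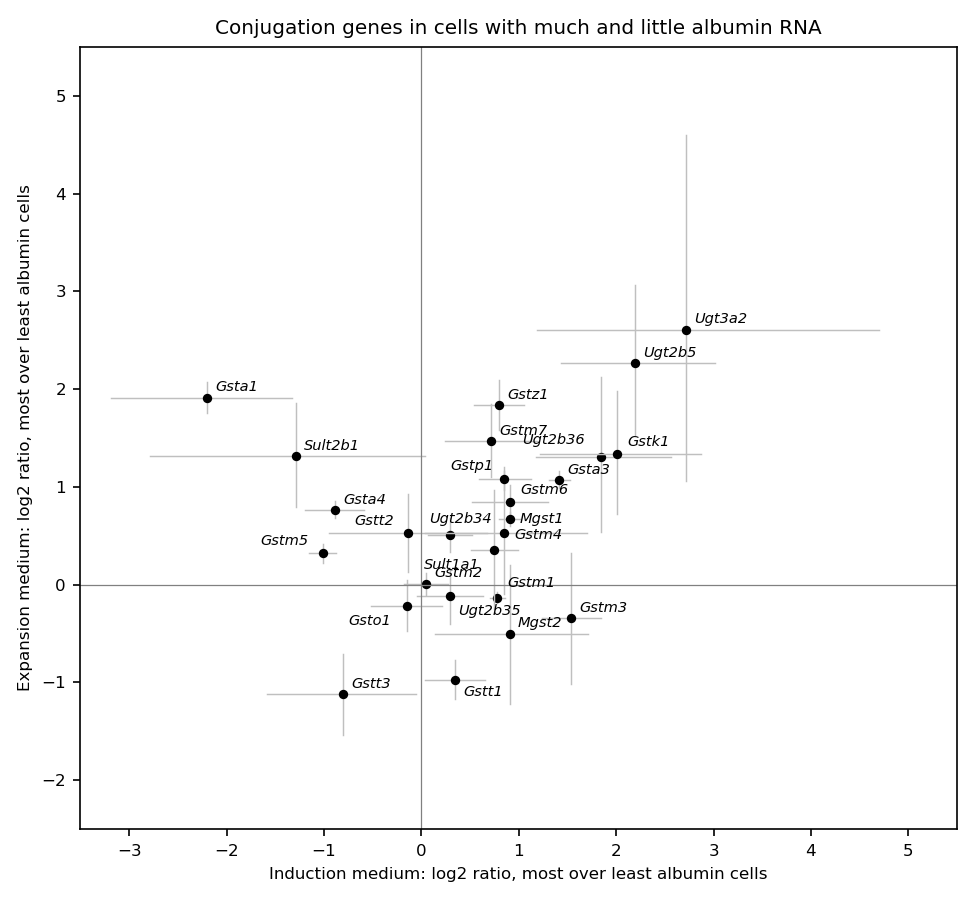
Log2 ratio of the 25% of cells with the most albumin over the 25% with the least, in induction medium (horizontal) and expansion medium (vertical), for the 26 genes with at least 20 UMIs in these cells of both libraries, with 95% counting intervals. Ugt3a2, Ugt2b5, Gstk1 and Gsta3 lie at the upper right in both media, and Gsta1 lies at -2.20 in induction and 1.91 in expansion.

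The libraries held cells from female and male mice, as Xist and Y-linked UMIs show. In induction, 412 cells had Xist alone, 503 had Y-linked UMIs alone, 22 had both and 308 neither. In expansion the counts were 325, 505, 275 and 86. Albumin-rich cells held fewer Xist cells than albumin-poor ones, with 29.6% and 37.3% in induction and 12.8% and 51.2% in expansion. Within Xist cells alone, the Gsta1 ratio by albumin was -2.16 in induction and 1.46 in expansion, and within Y-linked cells alone -2.75 in induction and 1.47 in expansion. These last 4 values come from a split chosen after the data had been seen.

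The ratio between media was also taken within each kind of cell. Gsta1 had 21.5 CPM in Xist cells of induction and 62.2 CPM in those of expansion, a log2 ratio of -1.53 (-1.92 to -1.16). In Y-linked cells it had 10.2 CPM in induction and 152 CPM in expansion, a log2 ratio of -3.91 (-4.39 to -3.46). Gsta4 was lower in both as well, with -1.25 in Xist cells and -2.57 in Y-linked cells. The large sulfotransferase ratios stood in both kinds: Sult1d1 had 9.24 in Xist cells and 10.01 in Y-linked cells. Gstm2 and Gstt3 had opposite signs, with 0.32 and 0.56 in Xist cells and -1.07 and -1.18 in Y-linked cells.

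Set over Y-linked cells of the same library, 4 of 33 genes were higher in Xist cells of induction medium and 1 was lower, where 6.67% of all genes were higher and 1.41% lower. Gstt3, a theta class enzyme, had 30.9 CPM in Xist cells and 5.21 CPM in Y-linked cells of induction (log2 2.57, 1.88 to 3.33). Gstm2 (log2 1.14), Ugt2b35 (1.11) and Gsta1 (1.08) were the others. Sult1e1 was the lower one, with 46 UMIs in Xist cells and 135 UMIs (33.5 CPM) in Y-linked cells (log2 -1.16). However, 1 induction cell held 30 of the 237 Sult1e1 UMIs. Whether that cell was a Y-linked one, and its part in this call, was not tested. In expansion medium 1 of 32 genes was higher in Xist cells, Ugt2b1, and 3 were lower, where 3.19% and 1.7% of all genes were. Gsta1 was among the lower ones there, at 62.2 CPM in Xist cells and 152 CPM in Y-linked cells (log2 -1.29), the reverse of its order in induction. Sult2a2 had 1 UMI in Xist cells and 20 UMIs in Y-linked cells of expansion, but 1 Y-linked cell held 14 of the 20. Ugt3a2 had 3 UMIs in Xist cells and 19 UMIs in Y-linked cells. How many animals of each sex stand behind these cells is not given in the labels, so sex and animal cannot be told apart.

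**Figure D4:**
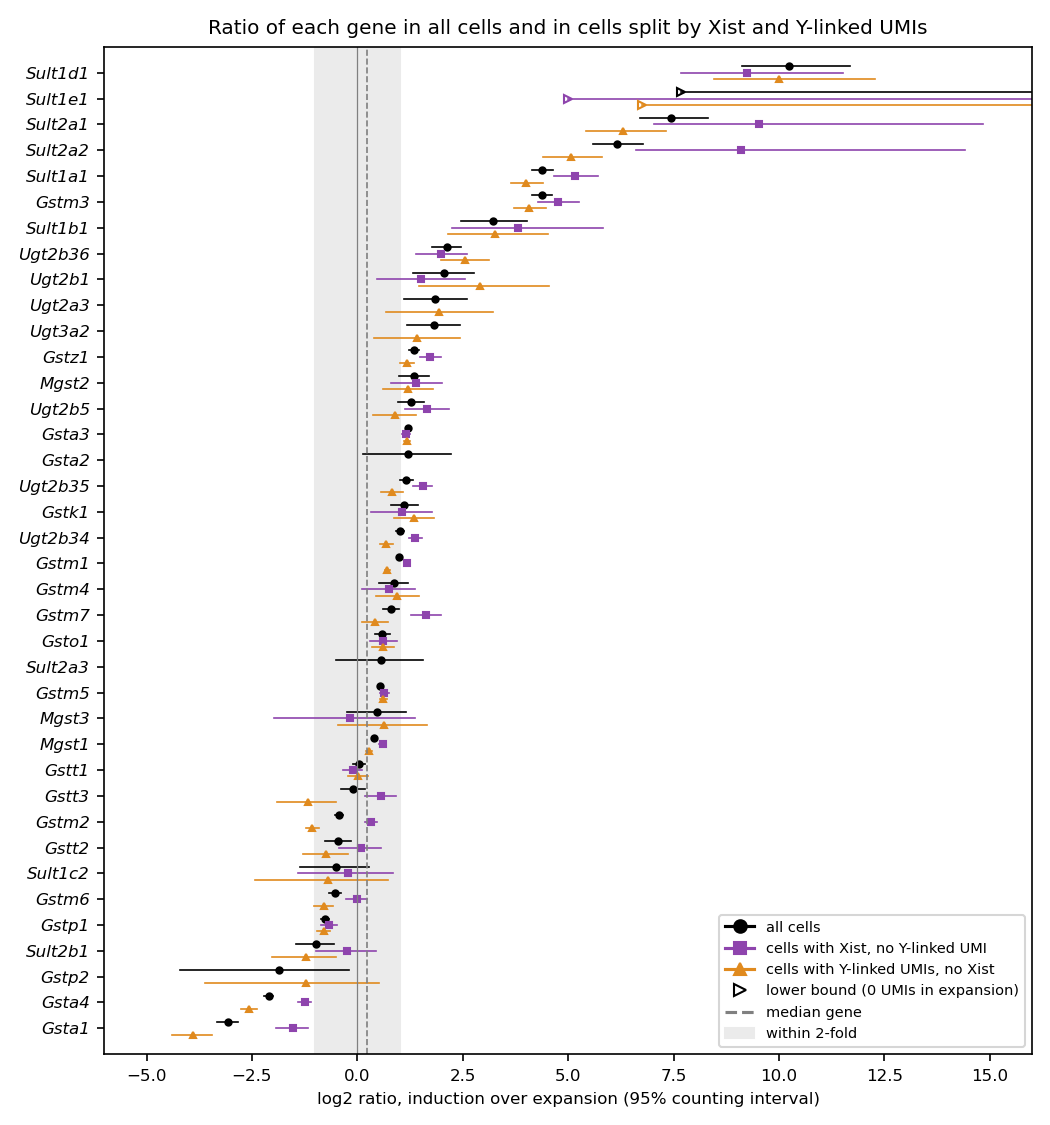
Log2 ratio of each described gene, induction over expansion, in all cells (black), in cells with Xist and no Y-linked UMI (purple) and in cells with Y-linked UMIs and no Xist (orange), with 95% counting intervals; the dashed line is the typical gene and the grey band 2-fold. Sult1d1 lies near 10 in all cells and Gsta1 at -3.07, with -1.53 in Xist cells and -3.91 in Y-linked cells.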

How the data were processed

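The values deposited by the authors are raw UMI counts (genes by cell barcodes), 1 library per medium, from the 10x Genomics Chromium system per the labels' protocols. Cell Ranger 2.1.1 and build mm10 are named in the submitters' processing notes. The cell-calling settings and the annotation release were not given in the sources used here. Cells with under 500 genes or over 25% mitochondrial UMIs were left out, which removed 30 induction and 17 expansion barcodes. The libraries share 4 barcodes.

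Counts were summed per library and divided by its total (CPM). A UMI counts a molecule once, so levels were not divided by length. Ratios carry exact conditional binomial intervals, levels exact Poisson intervals and shares exact Clopper-Pearson intervals at 95%, for counting error only. There are no replicates, so there is no test and no p-value. The "typical gene" is the median log2 ratio of 8480 genes, those having 50 or more UMIs in each library. Y-linked UMIs are those of Ddx3y, Eif2s3y, Kdm5d and Uty. Doublets were not removed; an alternative leaves out the 5% of cells with the most UMIs. The genes, lists and comparisons were chosen with earlier results of these data known. Every described gene may be named; full values are given at 100 CPM or more in either library and for the 8 largest ratios called in each direction, and the rest were named as ranges or as examples chosen after their values were seen. On simulated counts the ratio code recovered 97.9% of 95 genes changed by 1.5 and 100% of 98 changed by 3 on the log2 scale, and called 0.395% of 11648 unchanged ones. This checks the code only and gives no rate of false calls for these libraries, which have no replicates.

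Coordinates come from GENCODE M21 (GRCm38), where the IDs of all 64 genes were found, and promoters from RefSeq (GRCm38.p6). Python 3.11.15, numpy 2.4.6, scipy 1.17.1, pandas 2.3.3 and matplotlib 3.10.9 were used.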

Additional observations from a re-analysis of the deposited data

Results flagged for a closer look

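Gstm2 and Gstt3 had ratios of opposite sign in the 2 kinds of cells, a difference that was not tested because each medium has 1 library. The log2 ratio of induction over expansion was 0.32 for Gstm2 in Xist cells and -1.07 in Y-linked cells, and for Gstt3 it was 0.56 in Xist cells and -1.18 in Y-linked cells.

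Another 5 genes had ratios of opposite sign in the 2 media when albumin-rich cells were set over albumin-poor cells, and these differences were not tested either. The log2 ratio was -2.20 in induction and 1.91 in expansion for Gsta1, and -0.89 in induction and 0.77 in expansion for Gsta4. For Gstm5 it was -1.01 in induction and 0.32 in expansion. The order was the other way for Gstm1, with 0.78 in induction and -0.13 in expansion, and for Gstt1, with 0.34 in induction and -0.97 in expansion. Of these 5, Gsta1 alone was past 2-fold in both media.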

How the results depend on the processing

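Over the alternatives, the number of higher genes in induction medium ran from 14 (library total without mitochondrial and ribosomal protein genes, or scaling to the typical gene) to 25 (interval alone), against 19 as reported, and the median log2 ratio from 0.70 (Y-linked cells alone) to 1.26 (any gene with a UMI). The number of lower genes, 3 as reported, ran from 2 to 8. It was 2 without the 5% of cells with the most UMIs, in Xist cells alone, and among genes with at least 50 UMIs. It was 5 in Y-linked cells alone, 5 with a 1.5-fold limit and 8 by the interval alone. Shares of all genes are given only for the rule as reported and relative to the typical gene. The other counts therefore cannot be set against all genes. The number of genes with a value also differed between alternatives. Genes found in at least 10% of cells numbered 15 in induction and 11 in expansion at 2000 UMIs per cell; thinning to 1000 UMIs left 9 in induction and 8 in expansion, and no thinning gave 22 in induction and 24 in expansion, which turns the order of the media round. By albumin, splitting the cells at the median gave 1 lower gene in induction and 0 in expansion. In expansion, ordering by 12 secreted protein genes gave 6 higher and 0 lower, Xist cells alone gave 5 higher, and Y-linked cells alone gave 0 lower. The only called ratio that changed sign was that of Ugt2b36 by albumin in expansion, -0.35 when cells were ordered by the 12 genes against 1.31 as reported. The cause was not tested. A gene with under 20 UMIs left under an alternative got no value. No paired analysis was possible because each medium has 1 library. Depth limits the induction library, where 3 UMIs, the one-sided 95% limit of a count of 0, is 0.326 CPM.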
